A study of Mus musculus with 5 samples.

Results

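The posterior Hox genes of colon epithelium and stroma are described here by 9 genes: Hoxb13, Hoxa13, Hoxd13, Hoxd12, Hoxd10, Hoxa10, Hoxa9, Hoxb9 and Hoxb6. They were named with earlier results of these data known, out of the 39 genes of the mouse Hox clusters, and all 9 were listed in every library, among 22146 genes in all. Of the 9, 8 belong to the 16 Hox genes of paralog groups 9 to 13, and Hoxb6 is a more anterior neighbor of Hoxb9. Raw UMI counts from inDrop single-cell RNA-seq were examined in 5 libraries of mouse colon. In 4 of them, wild-type (WT) mice carried distal colon tumors of the AOM/DSS model, in which a carcinogen (azoxymethane) and a colitis-inducing sulfate polymer are combined, and were given 5FU and Irinotecan. The early group held day 1 replicates 1 and 2, and the late group held day 3 and day 6. The remaining library, titled WT fibroblast, came from untreated WT colon dissociated to enrich stroma, and the region of the colon was not given for it. Untreated tumors were not used here, so every tumor value is a value under chemotherapy. The number of mice behind each library was not given, and p-values measure the spread between libraries.

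Hox genes encode homeodomain transcription factors that give cells their position along the body axis. Their order in each cluster follows the order in which they are expressed from head to tail, so that the genes at the 5′ ends, called posterior, are those of the hindgut, limb ends and urogenital tract. In the adult intestine Hoxb13 is known as a gene of the distal colon, and Hoxa13 and Hoxd13 as genes that pattern the hindgut and cloaca. Fibroblasts also keep a Hox code of the place in the body where they formed. Squamous epithelium lines the anal canal beside the columnar epithelium of the rectum, and both the place and the epithelial type can therefore bear on the Hox genes of a cell.

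The homeobox, the stretch of 180 bases that encodes the DNA-binding homeodomain, lay within 1 exon in all 9 genes in GENCODE vM21 on GRCm38. It is shown whole for the 3 genes of paralog group 13, of which Hoxb13 had 15470 UMIs in the treated libraries and Hoxa13 had 17. Each is the coding strand, 5′ to 3′, and capitals mark the 12 bases that encode the tryptophan, phenylalanine, glutamine and asparagine run of the third helix, which contacts DNA. Hoxb13 is on the plus strand (exon 2 of 2, chr11:96196020-96196199), Hoxa13 on the minus strand (exon 5 of 5, chr6:52258928-52259107) and Hoxd13 on the plus strand (exon 2 of 2, chr2:74669930-74670109).
Hoxb13: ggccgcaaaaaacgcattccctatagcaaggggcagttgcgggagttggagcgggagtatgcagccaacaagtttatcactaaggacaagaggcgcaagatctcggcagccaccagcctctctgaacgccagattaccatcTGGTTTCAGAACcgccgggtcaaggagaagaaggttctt
Hoxa13: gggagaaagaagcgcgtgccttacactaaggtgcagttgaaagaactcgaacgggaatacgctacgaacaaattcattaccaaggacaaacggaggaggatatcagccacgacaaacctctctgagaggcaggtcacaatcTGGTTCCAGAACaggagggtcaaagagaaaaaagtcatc
Hoxd13: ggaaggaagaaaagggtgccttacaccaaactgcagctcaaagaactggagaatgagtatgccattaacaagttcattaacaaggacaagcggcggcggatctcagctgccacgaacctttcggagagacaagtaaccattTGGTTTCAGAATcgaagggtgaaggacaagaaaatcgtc
Hoxa13 and Hoxd13 shared 73.9% of these bases, Hoxb13 and Hoxa13 68.9%, and Hoxb13 and Hoxd13 67.2%.

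For 5 of the other genes the part around the same 12 bases is shown, since it carries the contact to DNA that the family shares. Hoxd12 (chr2:74675843-74676022), Hoxd10 (chr2:74694141-74694320), Hoxb9 (chr11:96274659-96274838) and Hoxb6 (chr11:96300689-96300868) have their homeobox in exon 2 on the plus strand. Hoxa10 (chr6:52232554-52232733) has it in exon 2 on the minus strand.
Hoxd12: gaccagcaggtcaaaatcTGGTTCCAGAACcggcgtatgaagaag
Hoxd10: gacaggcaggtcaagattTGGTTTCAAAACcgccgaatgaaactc
Hoxa10: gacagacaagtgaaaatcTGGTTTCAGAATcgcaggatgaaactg
Hoxb9: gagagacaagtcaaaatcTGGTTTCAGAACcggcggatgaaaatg
Hoxb6: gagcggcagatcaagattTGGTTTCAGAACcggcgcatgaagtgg
The homeoboxes of Hoxd10 and Hoxa10 shared 78.9% of bases and those of Hoxa13 and Hoxb6 48.3%. Outside and inside the homeobox, the longest run of bases shared by the transcripts of any 2 of the 9 genes was 20 bases, in Hoxd10 and Hoxb9. Exons of Hoxd10 and Gm28309 overlapped by 104 bases, and those of Hoxa9 and Mir196b by 85, on the same strand in both cases.

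After removal of cells with fewer than 500 genes or more than 15% mitochondrial counts, 748, 2403, 1419 and 2826 treated cells and 1095 untreated cells were kept. Values of the 4 treated libraries always stand in the order day 1 (replicate 1, then replicate 2), day 3, day 6. Of these cells, 50, 186, 281 and 733 cells were called squamous-like, 281, 1235, 899 and 1358 columnar, 14, 39, 30 and 56 CAF-like (cancer-associated fibroblasts) and 134, 579, 33 and 493 immune. The 139 CAF-like cells were a single cluster named fibroblast, with Col1a1, Mmp10 and Mmp13 among its top genes. No cluster of the treated libraries was named telocyte or myofibroblast. Counts were summed over the cells of a class in each library and are given as CPM, the count of a gene scaled by all UMIs of that sum. Between classes, the names held against their markers. The summed CPM of 14 squamous markers stood at 26645 to 50315 in squamous-like and 1681 to 4783 in columnar cells. It stood at 942 to 7177 in CAF-like and 2116 to 5789 in immune cells. That of 10 fibroblast markers stood at 6874 to 31628 in CAF-like cells and at most 253 in the other 3 classes. Within CAF-like cells of day 3, however, the squamous sum (7177) and the columnar sum (6957) were both above the fibroblast sum (6874). RNA of columnar markers was also found in immune cells of the treated libraries, and whether it was free RNA was not tested. The summed CPM of 16 columnar markers in immune cells stood at 47.6, 46.1, 77.5 and 28.7% of its level in columnar cells of the same library, with at most 1 of the 16 at 0, so immune cells are given beside the other classes throughout. The columnar list includes Cdx1 and Cdx2 but none of the 9 genes. Each pair of libraries shared 4 to 41 cell barcodes, at most 2.47% of the smaller library.

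Columnar tumor cells carried the highest level of Hoxb13 among the 4 classes in each of the 4 treated libraries. Hoxb13, the most 5′ gene of the HoxB cluster, stood at 353, 193, 742 and 538 CPM in columnar cells. In squamous-like cells it stood at 254, 48.7, 554 and 212 CPM, in CAF-like cells at 163, 58.9, 459.5 and 204, and in immune cells at 146, 80.9, 538 and 154. Day 3 was the highest library and day 1 replicate 2 the lowest in all 4 classes, so that the ranges of the classes overlapped between libraries while the order within a library was kept for columnar cells.

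**Figure D1:**
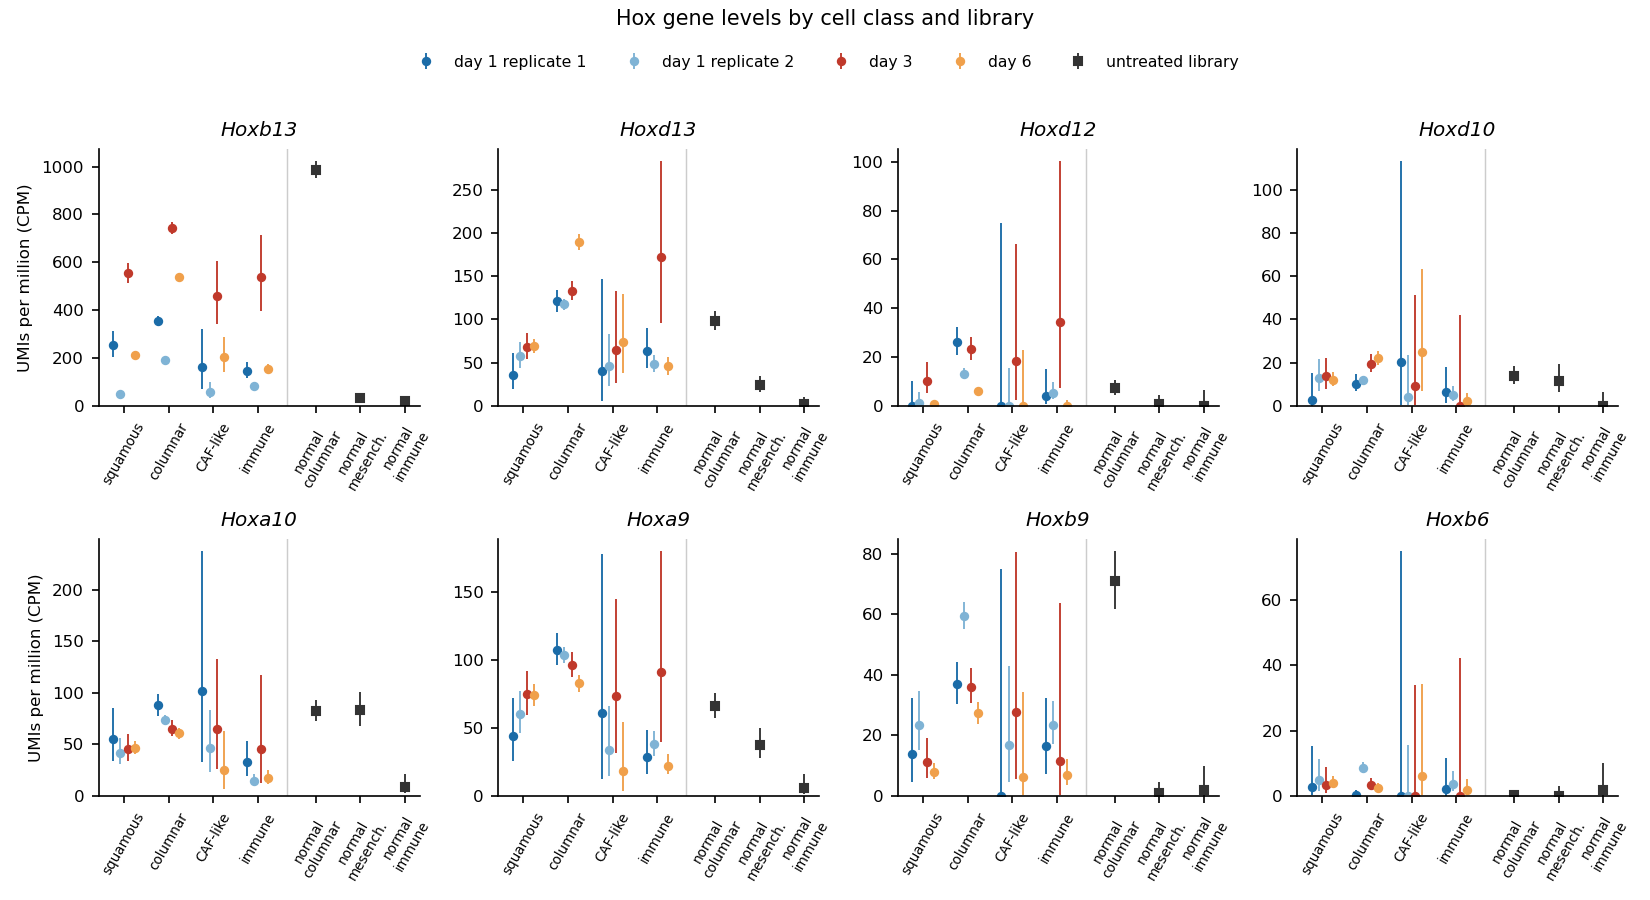
Level of 8 Hox genes in CPM (linear axis from 0) in squamous-like, columnar, CAF-like and immune cells of the 4 treated libraries (circles, 1 per library) and in columnar, mesenchymal and immune cells of the untreated library (squares), with exact 95% Poisson intervals that cover counting error only. Hoxb13 and Hoxd13 are highest in columnar cells of most libraries, while Hoxa10 and Hoxa9 keep a visible level in squamous-like and normal mesenchymal cells.

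Hoxd13, which patterns digits and hindgut, stood at 121, 117, 133 and 189 CPM in columnar cells and at 35.9, 57.5, 67.8 and 68.7 in squamous-like cells of the same libraries. The ranges did not overlap, and the squamous-like level was 29.7, 49.0, 50.8 and 36.2% of the columnar level. In CAF-like cells Hoxd13 stood at 40.7, 46.3, 64.3 and 74.1 CPM, and in immune cells at 63.7, 47.9, 172 and 45.6. The immune value of day 3, from 15 counts in 33 cells, was above the columnar value of that library, and the other 3 immune values were below theirs.

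Hoxd12 and Hoxb9 were low in squamous-like cells of every treated library. Hoxd12, a neighbor of Hoxd13, had 81, 149, 101 and 50 counts in columnar cells and 0, 1, 12 and 3 in squamous-like cells, of which 12 were in day 3. Hoxb9, a gene of the trunk and mammary gland, stood at 37.0, 59.4, 36.2 and 27.2 CPM in columnar and at 13.8, 23.4, 11.2 and 7.82 in squamous-like cells. The ranges of Hoxb9 did not overlap, and its squamous-like level was 28.7 to 39.4% of the columnar level within a library. Immune cells held Hoxb9 at 16.5, 23.4, 11.4 and 7.02 CPM, which is close to the squamous-like values in each library.

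Hoxa9 and Hoxa10, neighbors in the HoxA cluster, had lower values in squamous-like than in columnar cells of each library, by a smaller margin. Hoxa9, best known from blood stem cells and leukemia, stood at 108, 104, 96.2 and 82.8 CPM in columnar and at 44.2, 60.4, 74.6 and 74.1 in squamous-like cells. Hoxa10, known from the development of the uterus, stood at 87.8, 73.4, 65.2 and 60.6 CPM in columnar and at 55.2, 41.9, 45.5 and 46.3 in squamous-like cells. In immune cells Hoxa9 stood at 28.8, 37.8, 91.5 and 22.2 CPM and Hoxa10 at 32.9, 14.4, 45.8 and 17.5, below the squamous-like value in 3 of 4 libraries and above it in day 3, where Hoxa10 had 4 counts. Hoxd10 had 1, 13, 16 and 55 counts in squamous-like and 32, 134, 85 and 189 in columnar cells.

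Hoxa13 and Hoxb6 were near the limit of detection. Hoxa13 had 15 counts in the columnar cells of the 4 treated libraries together (0.547 CPM, 95% Poisson interval 0.306 to 0.903) and 0 in squamous-like, CAF-like and immune cells. The limit set by 0 counts, taken as 3 counts over the 4 libraries together, was 0.419 CPM for squamous-like cells, 5.38 for CAF-like and 0.721 for immune cells. Hoxb6 had 134 counts in columnar cells, 98 of them in day 1 replicate 2, and 28 in squamous-like cells (3.91 CPM, 2.60 to 5.65). By library it stood at 0.322 to 8.60 CPM in columnar and 2.76 to 4.87 in squamous-like cells. The squamous-like level was 858, 56.7, 106 and 159% of the columnar level, so higher in 3 libraries and lower in 1. Both genes fell under the count filter of the comparison between classes, so 7 of the 9 genes were tested there.

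Squamous-like and columnar cells were compared within libraries by edgeR's quasi-likelihood test, with each library as a block, to ask which Hox genes part both epithelia. Of the 7 genes tested, 4 were lower in squamous-like cells (Hoxb13, Hoxd13, Hoxd12 and Hoxb9), 0 were higher and 3 did not pass an adjusted p of 0.05. Over all 12007 genes tested, 9% were called lower and 18.2% in either direction, and the median log2 fold change was -0.93 for the 7 genes and 0.00 for all genes. Hoxb13 differed by a log2 fold change of -0.93 ± 0.23 (SE, edgeR adjusted p = 0.00712), Hoxd13 by -1.16 ± 0.27 (adjusted p = 0.0039), Hoxd12 by -2.59 ± 0.61 (adjusted p = 0.00465) and Hoxb9 by -1.46 ± 0.28 (adjusted p = 0.000947). All 4 were lower in squamous-like cells of 4 of 4 libraries. Hoxb13 no longer passed without day 1 replicate 2 or without day 6 (log2 fold change -0.72 in both).

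Hoxa9, Hoxa10 and Hoxd10 were not separated by this test. Their log2 fold changes were -0.47 ± 0.25 for Hoxa9 (edgeR adjusted p = 0.235), -0.47 ± 0.23 for Hoxa10 (adjusted p = 0.194) and -0.45 ± 0.41 for Hoxd10 (adjusted p = 0.562). Hoxa9 and Hoxa10 had lower values in squamous-like cells of 4 of 4 libraries and Hoxd10 in 3 of 4.

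**Figure D2:**
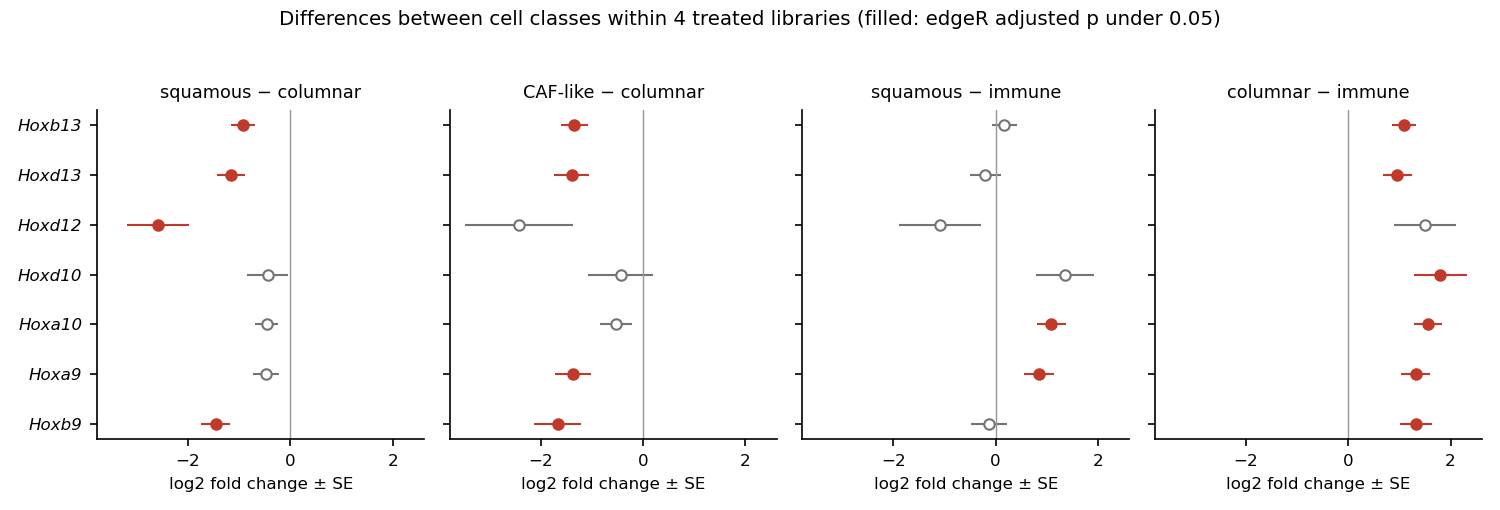
Log2 fold change with its standard error for 7 Hox genes in 4 comparisons within the 4 treated libraries, with filled points for an edgeR adjusted p under 0.05. Hoxb13, Hoxd13, Hoxd12 and Hoxb9 lie below 0 in squamous-like against columnar cells, and Hoxa10 and Hoxa9 lie above 0 in squamous-like against immune cells.

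Against immune cells, Hoxa9 and Hoxa10 were higher in squamous-like cells, and the other 5 of the 7 genes tested did not pass. The log2 fold change was 0.85 ± 0.29 for Hoxa9 (edgeR adjusted p = 0.0371) and 1.09 ± 0.28 for Hoxa10 (adjusted p = 0.00671), where 13.5% of all genes were called higher, 13.3% lower and 26.8% in either direction. Without day 1 replicate 2 and without day 6, 0 of the 7 genes were called, and without day 1 replicate 1 only Hoxa10. Hoxb13 differed from immune cells by 0.17 ± 0.24 (adjusted p = 0.655), Hoxd13 by -0.20 ± 0.30 (adjusted p = 0.682) and Hoxb9 by -0.13 ± 0.34 (adjusted p = 0.834). Hoxd10 differed by 1.36 ± 0.56 (unadjusted p = 0.0265, adjusted p = 0.0846), a larger fold than that of Hoxa9 or Hoxa10, and did not pass. Columnar cells were higher than immune cells in 6 of the 7 genes, all but Hoxd12, where 12.1% of all genes were called higher and 25.4% in either direction. Their log2 fold changes ran from 0.96 ± 0.28 for Hoxd13 (adjusted p = 0.0167) to 1.80 ± 0.52 for Hoxd10 (adjusted p = 0.0153), with 1.10 ± 0.23 for Hoxb13 (adjusted p = 0.0016), and without day 6, 3 were called (Hoxb13, Hoxa9 and Hoxa10).

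Columnar markers were set beside these levels. In squamous-like cells their sum was lower than in immune cells of each library and stood at 25.6, 31.4, 59.4 and 19.98% of the columnar sum, with at most 1 of the 16 markers at 0. Hoxb13 stood at 71.9, 25.2, 74.7 and 39.4% of its columnar level there and Hoxd13 at 29.7, 49.0, 50.8 and 36.2%, each above the marker sum in 3 of 4 libraries (day 1 replicate 2 was the exception for Hoxb13, and day 3 for Hoxd13). In immune cells Hoxb13 stood at 41.4, 41.9, 72.5 and 28.7%, close to the marker sum of each library. Hoxd13 stood in immune cells at 52.7, 40.8, 129 and 24.1%, above their marker sum in day 1 replicate 1 and in day 3. Hoxa10 stood at 62.9, 57.1, 69.8 and 76.4% of its columnar level in squamous-like cells, above the marker sum in 4 of 4 libraries, and at 37.5, 19.6, 70.2 and 29.0% in immune cells. Hoxa9 stood at 41, 58.1, 77.6 and 89.5% in squamous-like cells, also above the marker sum in 4 of 4. In immune cells Hoxa9 stood at 26.7, 36.3, 95.1 and 26.8%, above their marker sum in day 3 only. The part of free columnar RNA in the squamous-like values was not tested.

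**Figure D3:**
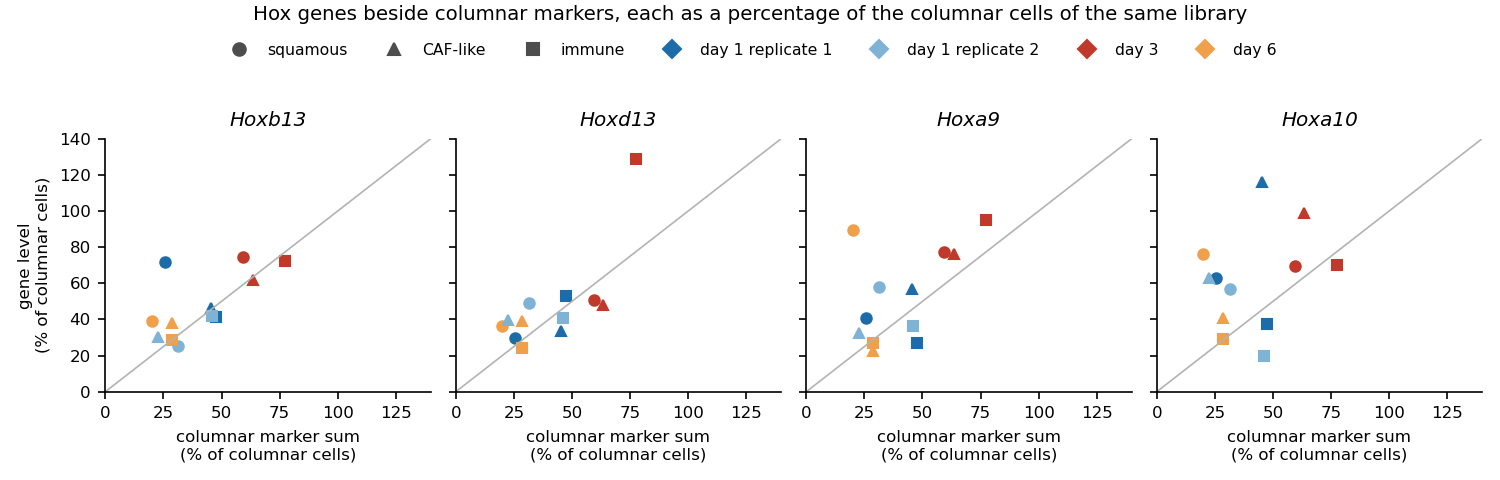
Level of Hoxb13, Hoxd13, Hoxa9 and Hoxa10 (y axis) against the summed level of 16 columnar markers (x axis), both as a percentage of the columnar cells of the same library, for squamous-like (circles), CAF-like (triangles) and immune cells (squares) of 4 libraries (colors), with the line of equal shares. For Hoxb13 the immune cells lie along the line and 3 of 4 squamous-like points above it, and for Hoxa9 and Hoxa10 the 4 squamous-like points lie above it. The immune point of day 3 also lies above the line for Hoxd13 and Hoxa9.

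Shares of cells with a UMI were compared after each cell was thinned to 1000 UMIs. Squamous-like cells then had a UMI of Hoxb13 in 18.0, 6.99, 37.0 and 20.4% of cells, and columnar cells in 27.4, 16.1, 48.2 and 38.3%. Immune cells had a UMI of the gene in 17.2, 6.39, 39.4 and 17.8%. The squamous-like shares were thus close to the immune shares in each library, and the columnar shares were above both. Before thinning the shares were 58.0, 18.8, 74.4 and 63.0% in squamous-like cells (median 5525, 2532.5, 3217 and 5635 UMIs) and 40.3, 20.03, 63.6 and 37.7% in immune cells (median 2499.5, 2415, 2041 and 2434 UMIs). Thinning left out 27 squamous-like, 122 columnar and 16 immune cells, all of day 6.

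CAF-like cells had the lower levels of Hoxb13, Hoxd13, Hoxa9 and Hoxb9 when set against columnar cells. These 4 of 7 genes were called lower and 0 higher, where 9.3% of all genes were called lower, 11% higher and 20.3% in either direction. The log2 fold change was -1.34 ± 0.26 for Hoxb13 (edgeR adjusted p = 0.000892), -1.39 ± 0.35 for Hoxd13 (adjusted p = 0.00652), -1.37 ± 0.36 for Hoxa9 (adjusted p = 0.00957) and -1.67 ± 0.46 for Hoxb9 (adjusted p = 0.0137). Without day 1 replicate 2, which held 39 of the 139 CAF-like cells, 2 were called (Hoxb13 and Hoxd13). Hoxb9 also lost its call without day 6 (log2 fold change -1.45). All CAF-like cells together had 22 counts of Hoxa9 and 8 of Hoxb9. Hoxa10 stood at 102, 46.3, 64.3 and 24.7 CPM in CAF-like cells, from 5, 11, 7 and 4 counts, and differed from columnar cells by -0.54 ± 0.31 (adjusted p = 0.255).

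Neither squamous-like nor immune cells were separated from CAF-like cells by any of the 7 genes in edgeR. Of all genes, 17.1% were called between CAF-like and squamous-like cells (8.56% higher and 8.57% lower in CAF-like cells) and 17.2% between CAF-like and immune cells (8.69% higher and 8.5% lower). Unadjusted p fell under 0.05 for Hoxa9 against squamous-like cells (log2 fold change -0.90 ± 0.37, adjusted p = 0.111) and for Hoxa10 against immune cells (1.02 ± 0.37, adjusted p = 0.0628). DESeq2 called 0 genes against squamous-like cells and 1, Hoxa10, against immune cells. Columnar markers in CAF-like cells stood at 45.4, 22.6, 63.5 and 28.5% of their columnar sum, and Hoxb13 at 46.1, 30.5, 62.0 and 37.9% of its columnar level. Hoxa10 stood there at 116, 63.1, 98.7 and 40.8% of its columnar level, above the marker sum in 4 of 4 libraries.

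The untreated library parted epithelium and stroma further. With 1 library there was no test, and intervals are exact 95% Poisson intervals of the counts. Hoxb13 stood at 987 CPM in 328 columnar cells (953 to 1023, 3076 counts), at 617 in 69 goblet cells (553 to 687) and at 32.7 in 439 fibroblasts, telocytes and myofibroblasts (23.3 to 44.5, 40 counts). In 147 immune cells of that library it stood at 17.9 CPM (8.57 to 32.9, 10 counts), an interval that overlaps that of the mesenchymal cells. After thinning, a UMI of Hoxb13 was in 58.3% of columnar, 3.08% of mesenchymal and 2.96% of immune cells (before thinning 89.3, 8.20 and 6.12%, at medians of 6025.5, 2237 and 2382 UMIs). Among mesenchymal cells, telocytes held Hoxb13 at 53.5 CPM (29.2 to 89.8, 14 counts), with a UMI in 13.9% of cells before thinning. The part of free RNA in the mesenchymal values was not tested.

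Hoxa10 and Hoxd10 had overlapping intervals in epithelium and mesenchyme of the untreated colon. Hoxa10 stood at 82.2 CPM in columnar cells (72.4 to 92.9) and 83.3 in mesenchymal cells (67.9 to 101), against 8.93 in immune cells (2.90 to 20.8). Among mesenchymal cells it stood at 111 CPM in 101 telocytes, 126 in 74 myofibroblasts and 62.1 in 264 fibroblasts. Hoxa9 stood at 76.4 CPM in telocytes (20 counts), 72.9 in myofibroblasts (15 counts) and 14.5 in fibroblasts (11 counts), against 65.8 in columnar cells and 5.36 in immune cells (3 counts). Its counts came from few cells: 9 of the telocytes, 6 of the myofibroblasts and 8 of the fibroblasts. In 25 pericytes, which were left out of the mesenchymal pool, Hoxa10 stood at 104 CPM (7 counts) and Hoxa9 at 74.2 (5 counts).

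Hoxb9 was held by epithelium and nearly absent from fibroblasts, telocytes and myofibroblasts of the untreated colon. It stood at 70.9 CPM in columnar cells (61.9 to 80.9) and 89.8 in goblet cells (66.4 to 119), and had 1 count in the 439 mesenchymal cells (0.817 CPM, 0.0207 to 4.55). Endothelial cells held it at 44.6 CPM (8 counts in 48 cells). Hoxd13 stood at 98.6 CPM in columnar cells (87.8 to 110), at 29.1 in fibroblasts (22 counts), at 15.3 in telocytes (4 counts) and at 14.6 in myofibroblasts (3 counts), with 1 count in immune cells. Hoxd10 had 43 counts in columnar cells (13.8 CPM, 9.99 to 18.6) and 14 in mesenchymal cells (11.4 CPM, 6.25 to 19.2), all 14 of them in fibroblasts. Hoxd12 had 22 counts in columnar and 1 in mesenchymal cells, Hoxa13 had 2 and 0, and Hoxb6 had 1 and 0.

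**Figure D4:**
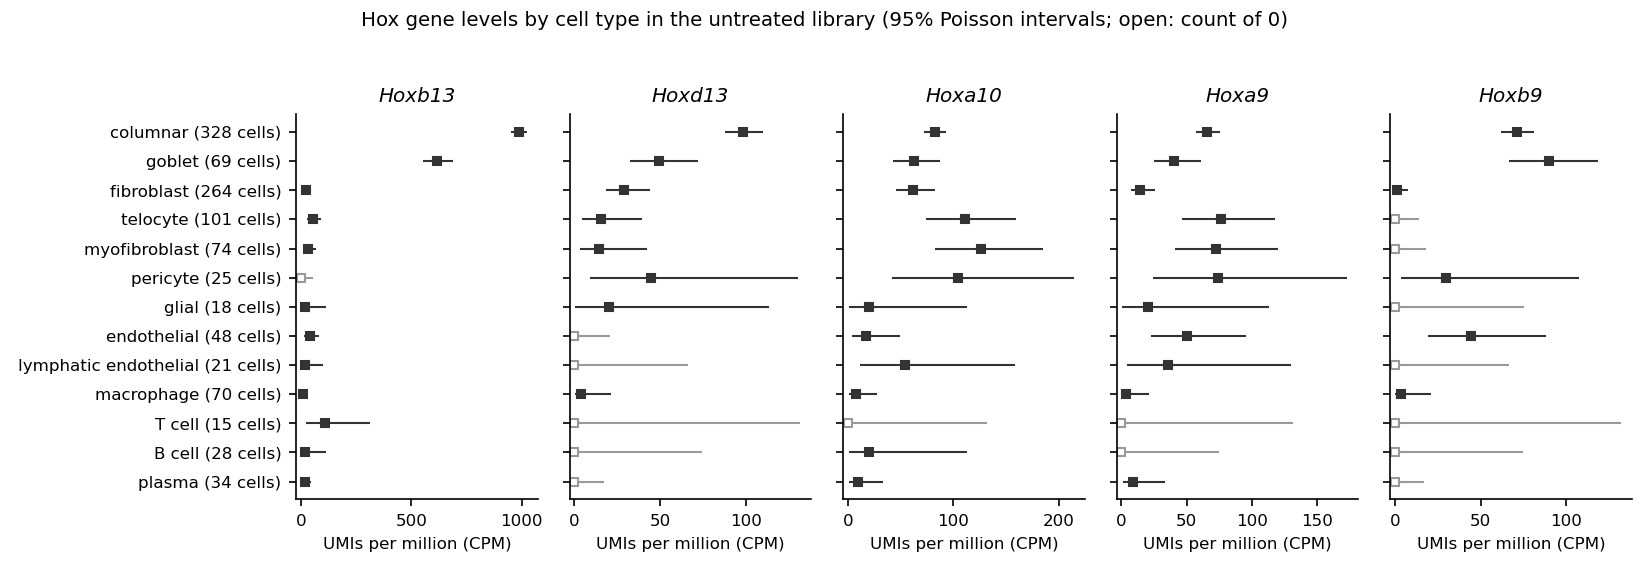
Level of 5 Hox genes in CPM (linear axis, a range of its own for each gene) by cell type of the untreated library, with exact 95% Poisson intervals and open squares for a count of 0. Hoxb13 and Hoxb9 are high in columnar and goblet cells, while Hoxa10 and Hoxa9 are also high in telocytes, myofibroblasts and the few pericytes. Hoxa9 rests there on 9 telocytes and 6 myofibroblasts with a UMI, and the intervals do not cover the spread between cells.

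Set beside the untreated columnar cells, columnar cells of the treated tumors had lower values of Hoxb13 and Hoxb9 and higher values of Hoxd13 and Hoxa9, in 4 of 4 libraries each. The treated median was 0.451 times the untreated level for Hoxb13 and 0.515 times for Hoxb9, 1.29 times for Hoxd13 and 1.52 times for Hoxa9. Hoxd12 was above the untreated value of 7.06 CPM in 3 of 4 libraries, Hoxd10 in 2 and Hoxa10 in 1. This is a description without a test, since 1 untreated library of another dissociation stands on one side, and tumor, treatment, dissociation and region of the colon cannot be told apart. Immune cells of treated libraries had Hoxb13 at 80.9 to 538 CPM against 17.9 in the untreated library, so treated values of non-columnar cells were not set against untreated ones.

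Among the other epithelial cells of the tumors, enteroendocrine cells held high levels. Hoxb13 stood at 859, 440, 632 and 853 CPM in 11, 17, 9 and 41 enteroendocrine cells, above the columnar level in 3 of 4 libraries. Hoxb9 stood there at 126, 246, 67.7 and 160 CPM, above the columnar level in 4 of 4, and its value in day 3 rests on 3 counts. Goblet cells held Hoxb9 at 71.8, 75.8, 159 and 39.7 CPM, from 22, 75, 3 and 19 counts. These classes were not part of the fitted comparisons.

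Within the classes, the levels varied between clusters of the same library. In day 6, a squamous-like cluster with Trp63 at 653 CPM, a regulator of basal squamous cells, had Hoxb13 at 265 CPM (303 cells), and one with Krt13, a keratin of upper squamous layers, at 11233 CPM had Hoxb13 at 162 (280 cells). Hoxd13 stood at 72.8 and 62.5 CPM and Hoxa9 at 80.4 and 72.2 in these clusters. In day 1 replicate 2, a columnar cluster with the stem cell gene Lgr5 at 447 and the WNT target Wif1 at 1275 CPM had Hoxd12 at 22.4 and Hoxd13 at 61.6 CPM (318 cells), and the neighboring cluster with Wif1 at 108 had them at 12.2 and 165 (386 cells). One cluster of 655 cells, almost all of day 6, held columnar and squamous cells and was split by their markers into 506 columnar and 149 squamous-like cells. The 506 include a piece of 49 cells led by goblet genes (Fcgbp, Clca1 and Zg16 among its top genes) and a piece of 92 with the tuft cell genes Dclk1 and Trpm5 among its top genes, although goblet cells are a class of their own elsewhere. Without that cluster the same 4 genes were called between squamous-like and columnar cells.

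Late and early treatment were compared to ask whether the Hox genes of a class moved over the treatment time. EdgeR called 0 of 8 genes tested in columnar cells and 0 of 6 in squamous-like cells. In CAF-like cells it called 0 of 1, and 0% of all genes were called in each class. An unadjusted p under 0.05 was given to 2261 of 13522 genes of columnar cells, to 397 of 9750 genes of squamous-like cells and, of 3333 genes tested in CAF-like cells, to 269, and DESeq2 called 662, 19 and 11. In columnar cells Hoxb13 (log2 fold change 1.62 ± 0.48, edgeR adjusted p = 0.214) and Hoxd10 (1.33 ± 0.39, adjusted p = 0.217) had such an unadjusted p, and DESeq2 and the fit with no filter on low counts called Hoxb13. In CAF-like cells the gene tested was Hoxb13 (1.82 ± 0.75, adjusted p = 0.599), which was called without day 6. With the library structure (single or dual index) as a further term, 0 of these genes were called in any of the 3 classes. The 2 late values of Hoxb13 in columnar cells (742 and 538 CPM) were above both early values (353 and 193). Immune cells of the same libraries stood at 538 and 154 in late and at 146 and 80.9 in early treatment. Their day 6 value was close to that of day 1 replicate 1, and their day 3 value rests on 33 cells. The mix of immune cells also differed, with 394 neutrophils in day 1 replicate 2 and 24 in day 6. The Hoxb13 change was 1.57 ± 0.80 in squamous-like cells (adjusted p = 0.998). The difference between the changes of squamous-like and columnar cells was tested by an interaction term, which called 0 of 8 of these genes and 5 of 13480 genes (0.0371%, with 0.00742% higher and 0.0297% lower). At an unadjusted p under 0.05 the interaction gave 1247 genes, with 0 of these 8 among them, and DESeq2 called 76 genes, with 0 of the 6 it could test among them.

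The other 30 Hox genes include 8 more of paralog groups 9 to 13. In squamous-like against columnar cells, 8 of the 30 could be tested, and 3 were higher (Hoxd8 by 2.99 ± 0.51, edgeR adjusted p = 0.000318, Hoxb7 by 1.59 ± 0.47, adjusted p = 0.0221, and Hoxb4 by 1.55 ± 0.51, adjusted p = 0.0408), 0 were lower and 5 did not pass. Over all genes 9.15% were called higher. Among those that did not pass were Hoxa11 at 1.12 ± 0.45 (adjusted p = 0.099), Hoxd11 at -0.67 ± 0.31 (adjusted p = 0.157, called lower with only both classes in the fit), Hoxa5 at -0.46 ± 0.25, Hoxa7 at -0.36 ± 0.35 and Hoxb3 at 0.51 ± 0.64. Of the 10 other Hox genes with most UMIs, Hoxb5 and Hoxd9 fell under the filter, with 231 and 235 UMIs in the treated libraries. Hoxb4 and Hoxd8 passed it with 253 and 224. A low gene can pass this filter through the sums of the class where it is high. Whether Hoxb4 and Hoxd8 did so was not tested, and the count of genes called higher carries this limit. Hoxb4 passed in 7 of the 11 other settings that tested it and Hoxb7 in 11 of 14.

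Cofactors and upstream regulators of Hox genes were tested in the same comparison. The cofactors Meis1 (4.55 ± 0.35, edgeR adjusted p = 1.01e-07) and Meis2 (3.58 ± 0.44) were higher in squamous-like cells. The intestinal regulators Cdx1 (-1.21 ± 0.26) and Cdx2 (-1.27 ± 0.35, adjusted p = 0.013) were lower, and Pbx2, Pbx3, Pknox1 and Pknox2 did not pass. Cdx2 lost its call without day 1 replicate 2 (-1.34) and without day 6 (-0.77). Cdx1 and Cdx2 are columnar naming markers, so their direction was in part set by the names. Among other regional transcription factors, Pitx1 (5.10 ± 0.47) and Pax9 (4.55 ± 0.50) were higher, Gata6 (-1.73 ± 0.34) and Onecut2 (-1.55 ± 0.47) were lower, and Gata4, Tbx4 and Isl1 did not pass. Onecut2 lost its call without day 1 replicate 1 (-1.30) and without day 1 replicate 2 (-1.24). Of 5 RNAs of the Hox clusters without a homeodomain, 3 were tested, and Hottip, a transcript beside Hoxa13 (-2.59 ± 0.46, adjusted p = 0.000394), and Hoxa11os (-0.999 ± 0.28, adjusted p = 0.0157) were lower. Hoxa11os lost its call without day 1 replicate 1 (-0.98) and without day 1 replicate 2 (-0.78). Whether counting used strand was not given in the sources used here, so Hoxa11os and Hoxa11 cannot be told apart where they overlap.

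**Figure D5:**
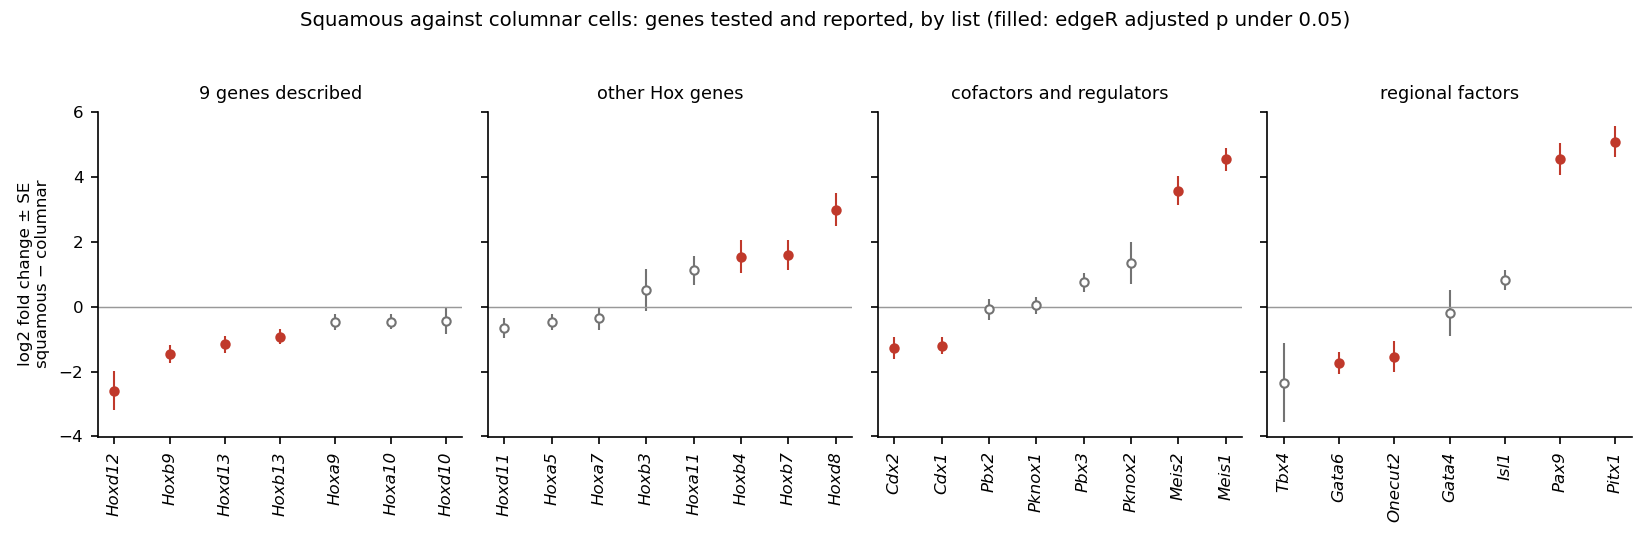
Log2 fold change with its standard error of squamous-like against columnar cells for the genes tested and reported in 4 lists, with filled points for an edgeR adjusted p under 0.05. The 7 genes tested from the list described here all lie below 0, while Hoxb4, Hoxb7, Hoxd8, Meis1, Meis2, Pax9 and Pitx1 lie above it. Low genes such as Hoxb4 and Hoxd8 can pass the count filter through the class where they are high, which was not tested. Of the posterior genes in the list of other Hox genes, Hoxa11 lies above 0 (1.12) and Hoxd11 below it (-0.67), and neither passed.

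Likeness of levels was taken as Pearson's r of log2(CPM + 10) over 35 sums of a cell class in a library, among 12392 genes. As a description only, since sums of 1 library share depth and can share free RNA, the genes most like each Hox gene were listed. For Hoxb13 they were Elf3 (0.93), Muc13 (0.93) and Smim22 (0.92), of which Elf3 is an epithelial transcription factor and Muc13 a mucin of the intestinal surface. For Hoxd13 they were Epb41l4b (0.90), Cystm1 (0.89) and Krt20 (0.89), a keratin of mature colon cells, and for Hoxd12 Flywch2 (0.81), Prr18 (0.79) and the WNT target Axin2 (0.79). Krt20 and Axin2 are columnar naming markers. The leading r was 0.81 for Hoxb9 (Arfgef3), 0.79 for Hoxa9 (Ctnnd1), 0.74 for Hoxb6 (Atl1), 0.73 for Hoxa10 (Pebp1) and 0.71 for Hoxd10 (Chmp3).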

How the data were processed

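Single cells of 5 mouse colon libraries were profiled by inDrop. The authors deposited raw UMI counts per gene and cell barcode, made with dropEst on GRCm38 and not normalized. The filters, 500 genes and 15% mitochondrial counts, were those the study states. The 9 genes and all lists were chosen with earlier results of these data known. Treated libraries were clustered together and the untreated library alone (20 principal components of 2000 variable genes without the genes reported, 20 neighbors, Leiden resolution 1) with scanpy 1.11.5 and leidenalg 0.10.2. Clusters were named from marker lists. After the data were seen, clusters in which 20 to 80% of cells leaned to squamous markers were clustered again and each piece named by its median share. No doublets were removed, and Scrublet with 6% expected called 12 of 7396 treated and 7 of 1095 untreated cells. Counts summed per library and class, with at least 10 cells, were tested with edgeR 4.0.16 (TMM, filterByExpr, quasi-likelihood, Benjamini-Hochberg over all genes, threshold 0.05) in R 4.3.3, and with DESeq2 1.42.0 as an alternative. Class comparisons had the library as a block, and late against early had no covariate. The method was tested on simulated data. Thinned shares used 1000 UMIs. Other genes were named where they were among the 10 other Hox genes with most UMIs, or were called in a list. Kept cells had median depths of 2903 to 3601 UMIs. A few genes of these lists and 1 sequence are not reported here.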

Additional observations from a re-analysis of the deposited data

Results flagged for a closer look

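In 33 groups of 4 treated libraries (a gene in a class), the library farthest from the others was tested by Dixon's criterion, and 7 passed. Chance passes it in about 1 of 20 groups of independent, normally spread values. That rate does not hold for low counts, since a gene with counts in only 1 library always passes (Hoxd12 and Hoxb6 in CAF-like cells). The groups also share libraries, so the 7 cannot be set against that rate. The 4 libraries span early and late treatment. Day 3 was the library apart in 5 of them, 3 of these in its 33 immune cells: Hoxb13 at 538 CPM against 80.9 to 154 in the other libraries, Hoxd13 at 172 against 45.6 to 63.7, and Hoxd12 at 34.3 (3 counts) against 0 to 5.32. In squamous-like cells of day 3, Hoxd12 stood at 10.3 CPM (12 counts) against 0 to 0.975, and in CAF-like cells of day 3 at 18.4 (2 counts) against 0 counts in the others. Columnar markers in immune cells were also highest in day 3, and their part in these values was not tested. Hoxd10 in squamous-like cells was apart in day 1 replicate 1, at 2.76 CPM (1 count) against 11.9 to 13.7. Hoxb6 in CAF-like cells was apart in day 6, at 6.18 CPM from 1 count, against 0 counts in the others.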

How the results depend on the processing

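Of 132 counts of posterior Hox genes called under other settings, 120 stayed within 1.5 times the value reported and 12 did not; the settings for the change of late against early between classes and the fits without the split cluster were chosen after seeing the data. Between squamous-like and columnar cells, Hoxd13, Hoxd12 and Hoxb9 passed in 14 of 14 settings and Hoxb13 in 12. Over the fits that leave out 1 treated library each, the count called ran from 2 to 4 between CAF-like and columnar cells, from 0 to 2 between squamous-like and immune cells, from 3 to 6 between columnar and immune cells and from 0 to 1 in late against early CAF-like cells (Hoxb13, without day 6). With no filter on low counts, and with cells called one by one, 1 gene (Hoxa10) was called between squamous-like and immune cells. DESeq2, and the fit without the cells of highest Scrublet scores, called 1 gene (Hoxa10) between CAF-like and immune cells. In late against early columnar cells DESeq2 and the fit with no filter called 1 gene (Hoxb13). DESeq2 moved the median log2 fold change of all genes between CAF-like and columnar cells from -0.18 to -0.02, and calls over all genes from 1316 higher and 1117 lower to 1617 and 786. DESeq2 size factors moved the median of CAF-like against immune cells from -0.07 to -0.19. DESeq2 also moved the split from 1028 higher and 1029 lower to 1228 and 805 between CAF-like and squamous-like cells, and from 1450 and 1595 to 1134 and 1919 between columnar and immune cells.

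Values that changed sign had not passed the threshold. Between CAF-like and squamous-like cells the log2 fold change of Hoxd10 became -0.038 with DESeq2 size factors, -0.12 with no filter and -0.0195 with cells called one by one, that of Hoxd12 became -0.067 with cells called one by one, and that of Hoxa10 became 0.0208 with DESeq2 and 0.0212 with only both classes in the fit. Leaving out 1 library each gave -4.58 to 0.54 for Hoxd12, -0.70 to 0.59 for Hoxd10, -0.30 to 0.20 for Hoxa10 and -0.70 to 0.12 for Hoxb9 there. It gave -0.22 to 1.31 for Hoxb3 in squamous-like against columnar cells, -0.0024 to 0.40 for Hoxb13 in squamous-like against immune cells and -0.30 to 0.10 for Hoxa9 in CAF-like against immune cells, which was 0.0323 without the highest Scrublet scores. In late against early cells it gave -0.0652 to 0.23 for Hoxa10 in squamous-like cells, and -1.24 to 0.63 for Hoxd12, -0.10 to 0.23 for Hoxa10, -0.46 to 0.15 for Hoxb9 and -1.15 to 3.396 for Hoxb6 in columnar cells. Hoxb6 became 0.12 with the library structure as a further term. The causes were not tested. Day 3 and day 6 are 1 library each, and the CAF-like sums rest on 14 to 56 cells a library, which limits the precision of low genes. Class comparisons had the library as a block. Late and early libraries were compared unpaired, since the paper treats them as replicates of separate time points and gives no pairing between them.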
